A study of Mus musculus with 4 samples.

Results

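Hedgehog pathway genes were followed through a genome-wide list of chromatin contacts of a mouse brain tumor. The 8 genes were Shh, Ptch1, Smo, Gli1, Gli2, Gli3, Sufu and Hhip. Every listed contact was taken in which either anchor, a bin of 10 kb, overlapped the gene or the 2.5 kb beyond either of its ends. This gave 38 of the 99041 interactions of the list. The contacts come from HiChIP for H3K27ac, an assay that ligates neighbouring pieces of chromatin and enriches them for a histone mark of active promoters and enhancers. The letters YM in the name of the list are taken to stand for YAP-M tumor; nothing else ties it to a library.

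YAP-M is a fusion of YAP1, the co-activator of the Hippo pathway, with MAMLD1, and it drives ependymoma-like brain tumors in mice. GEO's sample labels name 2 tumor libraries from brain, with the genotype YAP-M fusion, and 2 libraries of neural progenitor cells, grown as neural stem cells with EGF and basic FGF and labelled as wild type. All 4 used an antibody to H3K27ac. The sources used here do not say how the fusion was brought into the brain, how old the mice were or whether animals were pooled. The list has no counts and no column for a library, so its depth is unknown, nothing could be compared between tumor and neural stem cells, and no value has a replicate error. In bulk tissue, a contact present in few cells and a weak contact in many cells cannot be told apart. Of marker genes for the labelled tissue, all 6 of neural progenitors had interactions, at a median of 23.5 per gene. Neuronal markers had 4 of 5 with a median of 2, microglial markers 5 of 5 with a median of 3, endothelial markers 4 of 5 with a median of 13, and liver and muscle genes 4 of 5 with a median of 3. Over all autosomal coding genes the share with an interaction was 67.8% and the median 3, so at these sizes the shares do not tell one cell type from another.

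Hedgehog signalling begins with a secreted, lipid-modified ligand, Sonic hedgehog in the brain. The ligand binds Patched1, which then no longer restrains Smoothened, and Smoothened acts at the primary cilium to free the Gli transcription factors from Sufu and from processing into repressors. Ptch1, Gli1 and Hhip are themselves targets of the pathway and its best known readouts. In the developing brain the pathway patterns the ventral neural tube and drives division of cerebellar granule neuron precursors, and its unchecked activity defines a class of medulloblastoma.

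All 8 genes had at least 1 listed interaction (exact 95% interval of the share 63.1 to 100%), against 67.8% of the 20665 autosomal coding genes counted in the same way. The interval includes that background, but the 8 genes were chosen and not drawn at random, so this is not a test. The counts were 11 at Sufu, 10 at Ptch1, 5 at Gli3, 4 at Shh, 3 at Smo, 2 each at Gli1 and Gli2, and 1 at Hhip. Their median was 3.5 and the median of all coding genes was 3. Sufu and Ptch1, paired here because they had the highest counts, together held 21 of the 38 interactions (55.3%, exact 95% interval 38.3 to 71.4%). The interval does not allow for that choice. They held 13 of the 26 interactions that used at least 1 bin of the gene not shared with the end of another coding gene. The difference between any pair of these genes has no error, because there is 1 list. The interval of the share also treats the 38 interactions as independent. Of these, 26 had an adjacent call, so it can be too narrow.

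**Figure D1:**
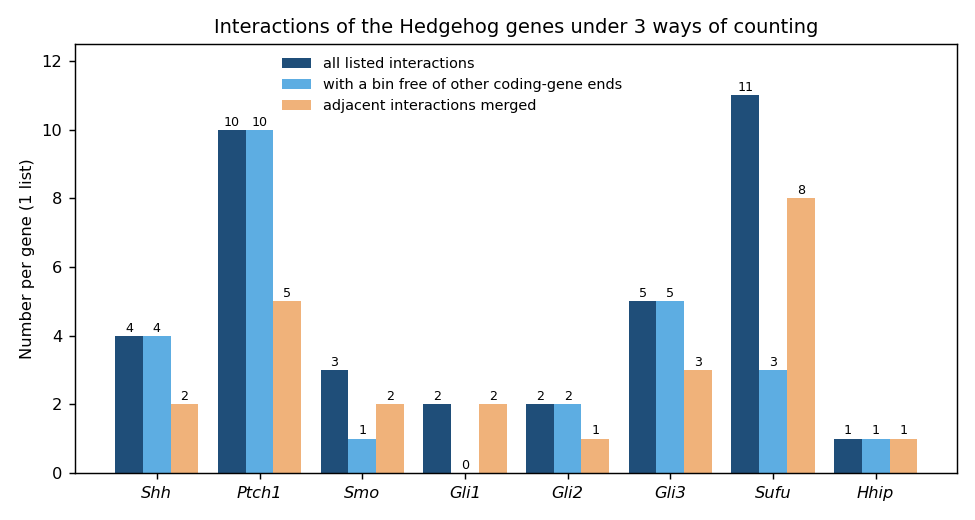
Number of interactions (y axis) of each Hedgehog gene (x axis) in the 1 list: all listed, those with a bin of the gene that is not within 2.5 kb of an end of another coding gene, and after merging of adjacent calls. Sufu leads with 11 and drops to 3 when interactions through shared bins alone are left out, whereas Ptch1 keeps 10 and has 5 merged contacts.

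Long genes cover more bins, and the 8 genes spanned a median of 9.5 bins against 3 for all coding genes. Each gene was therefore also set beside the coding genes that cover exactly as many bins. The share of such genes with an interaction ran from 54.5% at the span of Shh to 86.7% at that of Gli3. It was above the 67.8% of all coding genes at the span of every member but Shh. Shh, Ptch1 and Sufu lay above the median of such genes. Shh had 4 interactions against a median of 1 over 5967 genes, Ptch1 had 10 against 6 over 575 genes, and Sufu had 11 against 8.5 over 330 genes. The other 5 lay below it. The differences were widest at Gli3, with 5 against 23.5 over 30 genes, and at Hhip, with 1 against 8.5. Of the genes of the same span, 73 of 330 had at most the number of Hhip, 9 of 30 at most that of Gli3 and 17 of 55 at most that of Gli2. These 3 genes were therefore low, but not at the extreme, for their span.

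**Figure D2:**
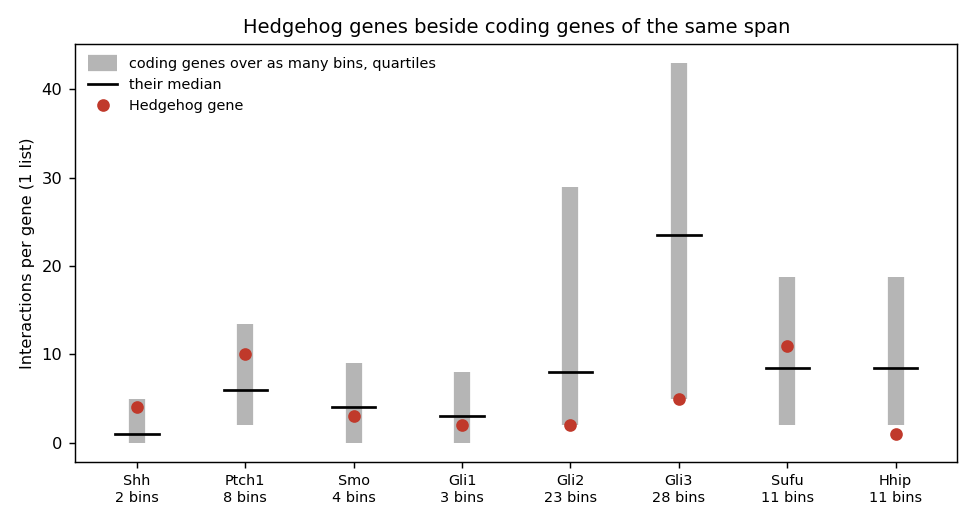
Interactions per gene (y axis) of each Hedgehog gene (red point) beside the quartiles (grey bar) and median (black line) of all coding genes that cover the same number of 10 kb bins (x axis labels). Shh, Ptch1 and Sufu lie above the median of their class, and Hhip lies below the lower quartile, with 1 interaction against a median of 8.5.

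Most interactions led out of the gene. Of the 38, 31 (81.6%, exact 95% interval 65.7 to 92.3%) had an anchor beyond the gene and its 2.5 kb margins, and 7 joined bins of the same gene. At 7 of the 8 genes at least 1 interaction led outward, against 67.1% of all coding genes; the exception was Gli2. Of the 31 outward partners, 14 lay in a bin within 2.5 kb of an end of another coding gene (13 had the end in the bin itself), 7 lay inside another coding gene and 10 lay between coding genes. In 15 of the 31, at least 1 whole coding gene was skipped. For these shares of interactions the values over all coding genes were not computed, so they do not set the 8 genes apart. The distance between anchors ran from 40 to 840 kb with a median of 145 kb, and the median of the whole list was 180 kb.

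The ligand gene Shh (chromosome 5, 28456840 to 28467101) had the longest contacts of the 8 genes. It had 4 interactions, at distances of 730, 820, 830 and 840 kb, and all partners were at higher coordinates. The contact at 730 kb ended in the bin that holds the low-coordinate end of Rnf32, a ring finger gene. The other 3 ended in adjacent bins inside Lmbr1, from 29280001 to 29300000, within a gene that reaches from 29229802 to 29378421. Lmbr1 is known as the gene whose intron carries the limb enhancer of Shh; the position of that enhancer was not analysed here. Lmbr1 had 4 interactions in all, and 3 of them were these with Shh. The bins of Shh and all 3 partner bins had no interaction with anything else. No listed contact of Shh was shorter than 730 kb, although the list allows distances from 20 kb, and only 2 interactions of any kind lay within 500 kb of the gene, neither of them touching it. After merging of adjacent calls, Shh had 2 contacts.

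Ptch1 (chromosome 13, 63508328 to 63573460), which encodes the receptor that restrains Smoothened, had 10 interactions, and all of them left from its promoter side. The annotated start site at 63565735 lies in the bin from 63560001 to 63570000, which had 7 interactions, more than or as many as 89.3% of all anchors. The next bin, which holds the end of the gene, had the other 3. The remaining 6 of the 8 bins of Ptch1 had none. In 8 of the 10 the partner lay at higher coordinates, upstream of the promoter since the gene is on the minus strand, and the contacts reached 430 kb. These partners lay in 4 places: at 63690001 to 63710000 between genes, at an end of the repair gene Ercc6l2 (2 interactions), just past Ercc6l2 at 63910001 to 63930000, and at 63990001 to 64000000. The other 2 joined both promoter-side bins to a bin inside Fancc, a Fanconi anaemia gene, 130 and 140 kb away. Both bins of Ptch1 thus met the Fancc, Ercc6l2 and 63910001 bins.

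Some partners of Ptch1 were also listed as contacts of each other. The bin inside Fancc and the end of Ercc6l2 met across Ptch1, 380 kb apart. The bin at 63690001 met those at 63910001 and 63920001. No other pair of these partner bins was listed, and the bins at 63700001 and 63990001 met Ptch1 alone. Ercc6l2 had 3 interactions in all, of which 2 were with Ptch1 and 1 with the bin inside Fancc. Of the 68 interactions that lay within 500 kb of Ptch1, 10 touched the gene. None of its bins held another coding gene's end, so its count is not shared.

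Smo (chromosome 6, 29735497 to 29761366), which encodes the transducer that Ptch1 restrains, had 3 interactions at distances of 40, 50 and 60 kb, and none at its start site. The bin with the start site, 29730001 to 29740000, had 0. The contact at 40 kb joined a bin inside Smo to an end of the tetraspanin gene Tspan33. The other 2 left from the bin at the far end of Smo, which also holds the low-coordinate end of Ahcyl2 at 29768379, and both ended inside Ahcyl2. The list cannot tell which of the neighbours that bin stands for. Ahcyl2 had 19 interactions over its length, so 2 of them are the ones counted here for Smo.

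**Figure D3:**
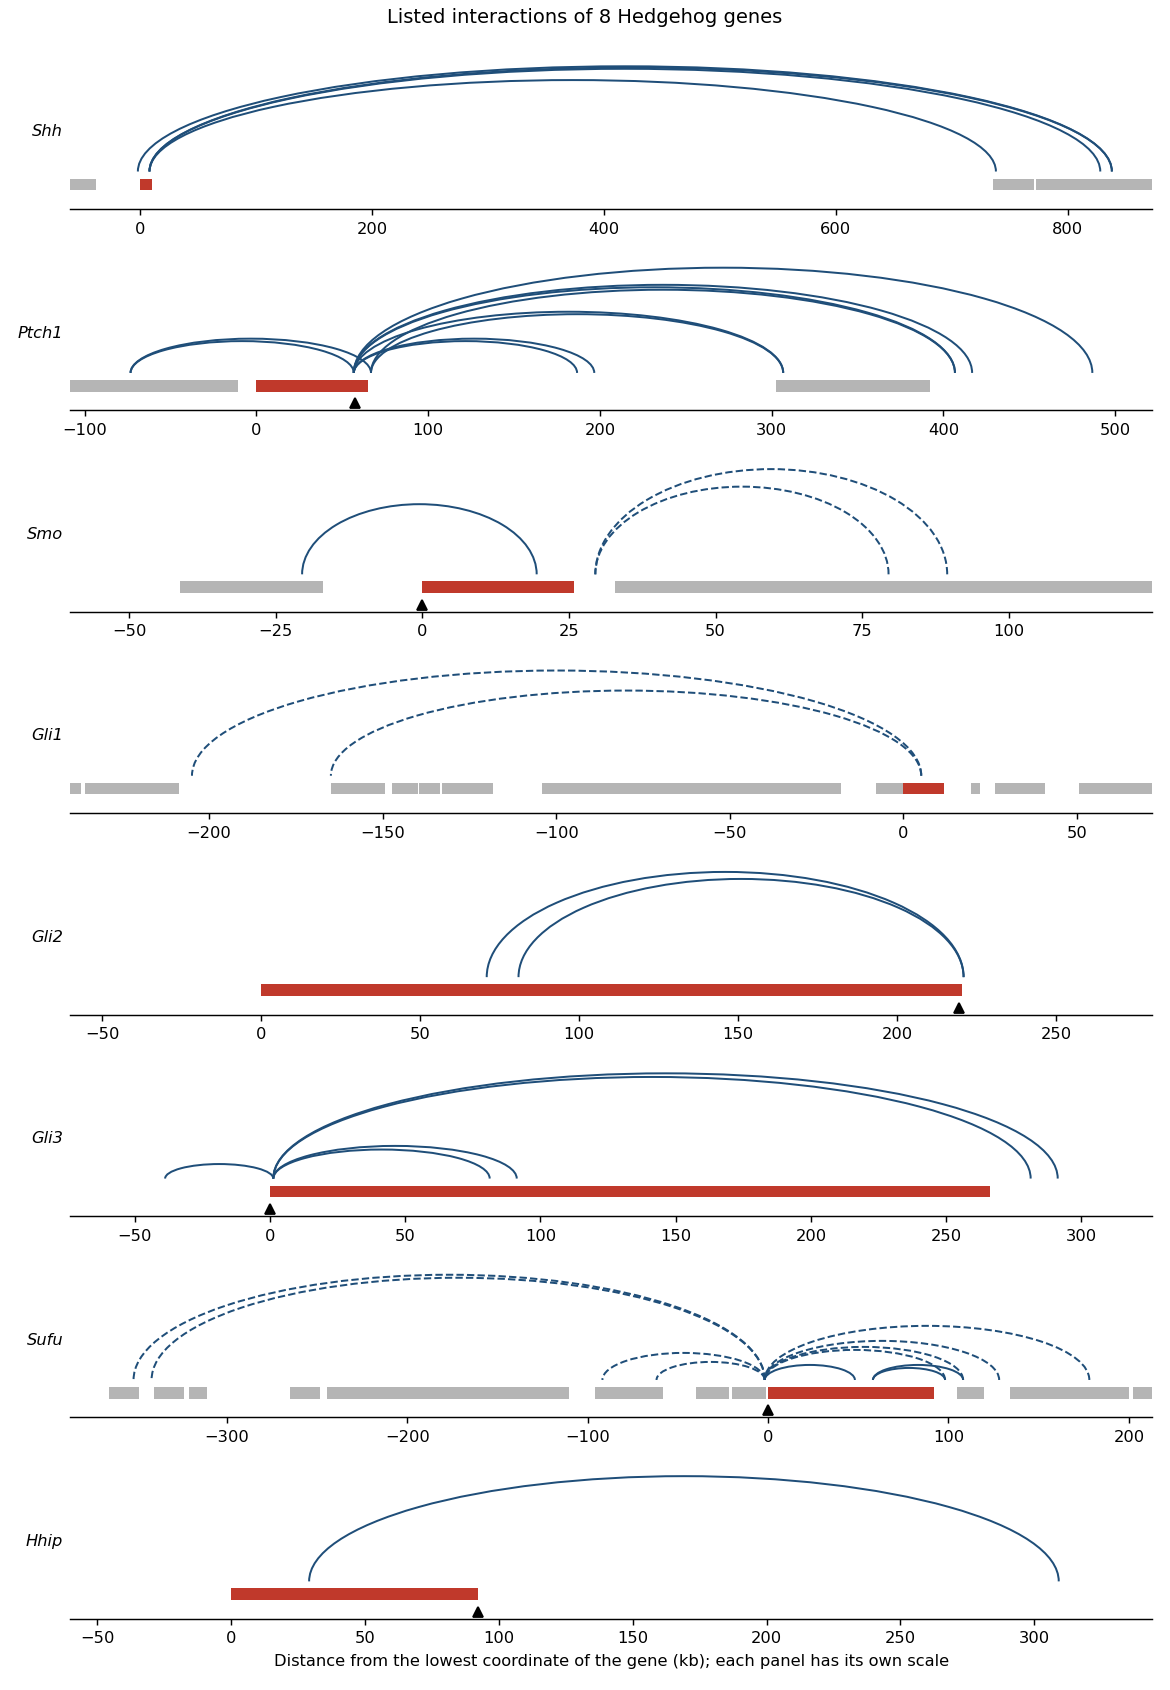
Each arc joins the middles of the 2 anchor bins of an interaction, against the distance in kb from the lowest coordinate of the gene (x axis, a scale of its own in each panel; arc height follows distance within a panel). Red bars are the Hedgehog genes, grey bars other coding genes, triangles listed start sites, and dashed arcs use only bins of the gene within 2.5 kb of an end of another coding gene. The arcs of Shh all land 730 to 840 kb away, those of Ptch1 fan out from its promoter side, those of Gli2 stay inside the gene and all those of Gli1 are dashed.

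The transcription factor genes differed in where their contacts went. Gli1 (chromosome 10, 127329882 to 127341579), an activator and a target of the pathway, had 2 interactions, of 170 and 210 kb, both to lower coordinates. They ended at an end of Os9, an endoplasmic reticulum lectin gene, and in a bin with an end of B4galnt1, a ganglioside synthase gene; an end of Slc26a10 lay within 2.5 kb of that bin. They skipped 11 and 10 whole coding genes. Gli1 lies in a dense region, with 41 other coding genes within 500 kb, and of 58 interactions in that region 2 touched Gli1. The bin of Gli1 used by both, from 127330001 to 127340000, lies within the gene, but Arhgap9 ends 54 bases below it. When such bins are left out, Gli1 has 0 interactions.

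Gli2 (chromosome 1, 118834061 to 119054405), the main activator among the Gli proteins, was the gene with contacts only within itself. Its 2 interactions joined the start-site bin, 119050001 to 119060000, to adjacent bins 140 and 150 kb into the gene, from 118900001 to 118920000. They merged into 1 contact. Of its 23 bins, 3 had an interaction, and none of the 19 interactions within 500 kb passed over the gene.

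Gli3 (chromosome 13, 15463723 to 15730026), the main repressor of the pathway when processed, had 5 interactions, and all 5 shared its start-site bin, 15460001 to 15470000. From there 1 contact reached 40 kb upstream, 2 reached 80 and 90 kb into the gene, and 2 reached 280 and 290 kb, to bins just beyond the far end of the gene. None of the partners held an end of another coding gene. Inhba, the activin subunit gene, is the 1 other coding gene within 500 kb; it had 35 interactions, and none of these was with Gli3. Of the 11 interactions that lay within 500 kb of Gli3, its own 5 were 45.5%, the highest such share among the 8 genes.

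Sufu (chromosome 19, 46396896 to 46488804), which encodes the protein that holds Gli factors in the cytoplasm, had 11 interactions, the most of the 8 genes. Its start-site bin, 46390001 to 46400000, had 9 of them, more than or as many as 93.3% of anchors. That bin also holds an end of Actr1a, a dynactin subunit gene, at 46395741, and the 9 interactions of Actr1a are the same 9. Of the 8 contacts of Sufu beyond the gene, 7 ended in a bin that held an end of another coding gene, and all 8 in a bin within 2.5 kb of such an end. By the wider measure the genes were Trim8, an E3 ligase gene, Arl3, a ciliary GTPase gene, Ldb1, a LIM-domain cofactor gene, and Psd with 2 interactions each, and Nfkb2, Pprc1, Cuedc2, Fbxl15 and Sfxn2 with 1 each. Psd counted through the 2.5 kb alone, and so did 1 of the contacts of Arl3 and of Ldb1. A single interaction can count for up to 3 genes. The contacts reached 350 kb to lower and 180 kb to higher coordinates. The region is densely connected, and all 23 other coding genes within 500 kb had interactions. Of the 3 interactions counted as inside Sufu, 2 ended in the bin from 46490001 to 46500000, which starts beyond the annotated end of the gene. Sufu had 3 interactions with at least 1 bin of the gene that was not within 2.5 kb of an end of another gene. Among them, the contact between the bins at 46390001 and 46440001 and that between 46450001 and 46490001 also used a shared bin.

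Hhip (chromosome 8, 79965850 to 80058060), which encodes a membrane protein that binds and sequesters hedgehog ligands, had 1 interaction. It joined a bin inside the gene, 79990001 to 80000000, to a bin between genes 280 kb higher, and the start-site bin had 0. The partner bin had 5 interactions, of which 4 led to other sites between genes. A further 12 interactions passed over Hhip from bins at the neighbouring Abce1 and Anapc10 genes to sites 580 to 1000 kb away, among them bins at an end of Smarca5, a chromatin remodeller gene. They all left from neighbouring bins between 79710001 and 79740000, and several are adjacent calls, so they are not 12 separate contacts. Ptch1 and Smo had 1 interaction each passing over them, and the other 5 genes had 0.

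Start sites could be placed for 6 of the 8 genes. Of these, 4 (Ptch1, Gli2, Gli3 and Sufu) had an interaction at the start-site bin (66.7%, exact 95% interval 22.3 to 95.7%). The share over the 16457 coding genes with a listed start was 57.3%, which lies in that interval. Smo and Hhip had no interaction at that bin. The start-site bin of Sufu also holds an end of Actr1a, so its contacts cannot be assigned to Sufu alone. Of the 32 interactions of these 6 genes, 23 touched the start-site bin (71.9%, exact 95% interval 53.3 to 86.3%). The matching share over the interactions of all coding genes was not computed. The 250 bases before the start site are shown for the 3 genes with the most interactions at that bin and for Smo, which had none, so that promoters with and without contacts can be read side by side. They are from RefSeq (GRCm38.p6, the assembly of mm10), 5′ to 3′ on the strand of the gene, with CG dinucleotides in capitals. Positions are chr13:63565736-63565985 (minus strand) for Ptch1, chr13:15463473-15463722 (plus) for Gli3, chr19:46396646-46396895 (plus) for Sufu and chr6:29735247-29735496 (plus) for Smo.
Ptch1: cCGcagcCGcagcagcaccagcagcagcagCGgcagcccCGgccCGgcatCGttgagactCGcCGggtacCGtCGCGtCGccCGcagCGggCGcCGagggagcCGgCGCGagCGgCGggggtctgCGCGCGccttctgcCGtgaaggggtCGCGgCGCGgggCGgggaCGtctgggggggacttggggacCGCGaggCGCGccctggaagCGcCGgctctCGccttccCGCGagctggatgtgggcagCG
Gli3: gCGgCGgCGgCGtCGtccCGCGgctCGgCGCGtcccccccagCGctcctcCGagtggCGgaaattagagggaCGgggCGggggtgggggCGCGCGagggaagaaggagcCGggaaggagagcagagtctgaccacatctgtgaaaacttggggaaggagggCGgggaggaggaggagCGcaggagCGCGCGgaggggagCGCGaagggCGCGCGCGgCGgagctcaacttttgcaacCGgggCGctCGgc
Sufu: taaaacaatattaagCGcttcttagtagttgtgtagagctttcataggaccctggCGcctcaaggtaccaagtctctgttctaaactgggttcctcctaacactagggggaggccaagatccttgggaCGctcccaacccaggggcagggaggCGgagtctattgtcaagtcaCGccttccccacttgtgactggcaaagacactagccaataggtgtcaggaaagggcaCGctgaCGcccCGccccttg
Smo: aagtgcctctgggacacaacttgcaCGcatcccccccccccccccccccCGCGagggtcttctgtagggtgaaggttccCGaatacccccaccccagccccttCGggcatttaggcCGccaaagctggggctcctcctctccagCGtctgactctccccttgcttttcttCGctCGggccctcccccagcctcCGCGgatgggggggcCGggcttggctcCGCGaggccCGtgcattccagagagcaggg

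The promoter of Ptch1 held 41 CG dinucleotides and that of Gli3 held 34, against a median of 10 over 20085 promoters of coding genes. Only 1.40% of promoters held as many as Ptch1 and 4.66% as many as Gli3. Smo held 15, and Sufu, whose bin had the most contacts, held 8. The promoters of Gli2 and Hhip, not shown, held 22 and 28, so CG content and contacts did not follow the same order in these 6 genes. Both strands were searched for the letters GACCACCCA of the Gli motif, GGAATG of the TEAD motif (TEAD factors bind YAP to DNA) and the palindrome of the nuclear factor I motif. The Gli and nuclear factor I letters were in none of the 6 promoters, and in 0.154% and 0.0349% of all promoters. The TEAD letters were in that of Smo alone, on the minus strand, starting 17 bases before the start site (position 234 of the 250 printed), and in 11.5% of all promoters. A match of letters is not a site, and these windows leave out the distal anchors.

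Beyond the 8 genes, the wider pathway was read from a list of 56 genes by role. Of these, 41 had an interaction (73.2%), beside 67.8% of all coding genes, and their median was 5 against 3. These genes also spanned more bins, a median of 5 against 3. Within roles the numbers of genes are small, and no share by role was tested against 67.8%. Dhh, the ligand of testis and nerve sheath, had 11 interactions, of which 2 were in bins of its own, and Ihh, the ligand of cartilage, had 0. Of 6 genes that mature or release the ligand, 4 had an interaction: Disp1, which releases the ligand from the cell, had 20 and the acyltransferase gene Hhat had 10, whereas Scube1 and Scube2 had 0. All 5 other receptors and co-receptors had interactions, and their median was 5; the co-receptor genes Cdon and Boc had 7 and 6.

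By median count without regard to span, the cilium and Smoothened group was the lowest of the roles and the group that acts on Gli proteins the highest. Both groups spanned a median of 5 bins. The target genes described below had a median of 8 interactions over a median span of 2 bins. The roles were not compared at equal span. Of 13 genes that carry the signal at the cilium, 6 had an interaction (46.2%, beside 67.8% of all coding genes) and the median was 0. The highest were Arrb2, encoding beta-arrestin 2, with 17 and Iqce with 5. Evc, Evc2, Gpr161, Kif7, Ift88, Ift172 and Efcab7 were listed with 0, which means not detected at an unknown depth. Of 13 genes of Gli processing, 11 had interactions (84.6%), and the median was 13. Of the subunit genes of protein kinase A, Prkar1a had 41, of which 22 were in bins not shared with another gene end, Prkacb had 40 and Prkaca had 4. After merging of adjacent calls, Prkar1a had 12 contacts, Prkacb 13 and Prkaca 2. High counts were not particular to protein kinase A, since Dyrk2 had 39, all in unshared bins, and 10 merged contacts. Prkaca and Dyrk2 were named outside the rule for naming genes, with their values seen. Cul3 and Fkbp8 had 0. These proteins serve many other pathways.

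Of 17 genes known as Hedgehog targets in other tissues, 14 had interactions (82.4%, beside 67.8% of all coding genes), and the median was 8. Prdm1 had 95 and the cyclin gene Ccnd1 had 63, of which 25 were in bins without another gene end. After merging of adjacent calls these became 18 contacts of Prdm1 and 4 of Ccnd1. Bmi1 had 31, all in shared bins. Among the targets that mark ventral neural tube, Nkx2-2 had 11, Olig2 had 8, Foxa2 had 7 and Nkx6-1 had 0; the first 3 and Bmi1 were singled out after their values were seen. Sfrp1 and Grem1 also had 0. Several of these genes answer to many signals.

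**Figure D4:**
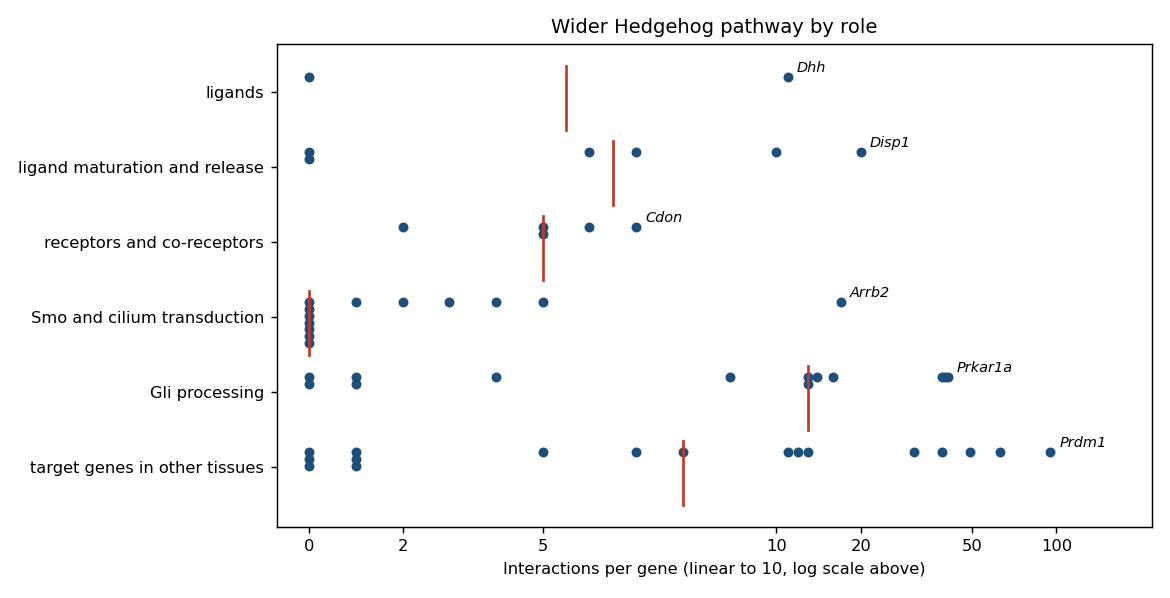
Interactions per gene (x axis, linear to 10 and on a log scale above) for 56 further Hedgehog pathway genes by role (y axis); each point is a gene and the red line is the median of the role. The cilium group has its median at 0 and the Gli processing group at 13, and the highest count is 95 at Prdm1.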

How the data were processed

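The labels give 2 libraries of YAP-M tumor and 2 of neural stem cells. Their titles name H3K27ac ChIP-seq, but the extraction protocol and the series design name HiChIP, and the list holds pairs of anchors. BWA and the mm10 build are named in the submitters' processing notes; which caller and threshold made the list, and whether replicates were pooled, is not given in the sources used here. Per the file headers, the deposited list gives 2 anchor positions per interaction and no other value. Gene positions came from RefSeq for GRCm38.p6, the assembly of mm10. Start sites came from its promoter table, which held 6 of the 8 genes and 16457 coding genes.

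Counting was done in Python 3.11.15 with pandas 2.3.3, and scipy 1.17.1 gave exact (Clopper-Pearson) 95% intervals, which cover counting error only. Intervals on shares of interactions treat each interaction as independent. The 38 merged into 24 contacts, so these intervals can be too narrow. The counts were checked on simulated data. A bin counted as shared if it overlapped the 2.5 kb around an end of another coding gene. Distances are between bin starts. No test between groups was possible with 1 list. The 8 genes and the lists were chosen with earlier results of these data known. Named genes were the 8 members, Lmbr1, coding genes with an end among the partners (at most 5 per gene, by count; Sufu had ties, and all its partners are named), and in each role of the wider list the 2 highest and those at 0. Neighbouring genes that share a bin, lie inside a partner bin or contact across a member were named after their values were seen. Alternatives were windows of 0 and 5 kb, both gene ends only, anchor midpoints, the start-site bin, merging of interactions within 1 bin of each other at both anchors, and other partner annotations. Leaving out interactions whose bins in the gene were all shared was added after seeing the data.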

Additional observations from a re-analysis of the deposited data

How the results depend on the processing

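No paired analysis was possible because the interactions are not split by library. Windows of 0 and 5 kb left the 38 interactions, the gene ends alone gave 29 and anchor midpoints 36. Counting start-site bins only, for the 6 genes with a listed start, gave 23 interactions, 4 genes with an interaction, and 23 of 40 genes of the wider list. That share of the wider list was close to the 57.3% of all coding genes with a listed start. Merging of adjacent calls gave 24 contacts of the 8 genes, left all 8 with a contact, and lowered the median of the wider list to 2. Leaving out interactions whose bins in the gene were all shared with another coding-gene end gave 26 interactions at 7 genes. It lowered the interactions leading out of the gene to 20. Of 54 counts of single genes under an alternative, 12 moved by more than 1.5 times. Ptch1 had 3 by gene ends, since its listed start lies inside the gene, and Hhip had 0. Coding genes at the partners numbered 15, and 13 to 19 under the other annotations. Depth is unknown, so a count of 0 does not show that a contact was absent.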
